A study of Mus musculus with 4 samples.

Results

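The genes described here encode the enzymes of lower glycolysis, the steps from fructose 1,6-bisphosphate to pyruvate, together with the side enzyme of the bisphosphoglycerate shunt. They were chosen by name (Aldoa, Tpi1, Gapdh, Pgk1, Bpgm, Pgam1, Pgam2, Eno1, Eno3 and Pkm), which gave 10 genes of the 32868 gene names in the series. Where a name had several rows, the row with the highest mean was used. The RNA came from tibialis anterior, a shin muscle made mostly of fast fibres, of C57BL/6 mice at postnatal day 21. The Het group (genotype Nf1flox/+/Myf5+) carried 1 floxed allele of Nf1 and the Nf1-KO group (Nf1flox/flox/Myf5+) carried 2, with 2 libraries in each. The Het libraries are therefore no wild-type control, since Myf5+ and a floxed allele are common to both groups. Myf5 is a gene of muscle precursor cells; the labels give the driver only as Myf5+, and whole muscle also holds nerve, vessel and blood cells. The labels do not say whether libraries came from separate animals, so p-values measure the spread between these libraries, which may be technical.

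Aldolase splits the hexose into a pair of triose phosphates, and the enzymes that follow oxidise them and return ATP at the phosphoglycerate kinase and pyruvate kinase steps. For phosphoglycerate mutase and enolase, mammals use separate genes in different tissues: Pgam2 and Eno3 encode the forms of mature striated muscle, and Pgam1 and Eno1 the forms found in most cells. Fast glycolytic fibres are known for a high content of all these enzymes, and the muscle forms replace the ubiquitous ones as fibres mature.

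Values are RPKM, read counts divided by gene length and by library depth, so levels can be compared between genes. Depth, estimated from the steps of low values, was 36600000 and 58200000 reads for Het and 47000000 and 51100000 reads for Nf1-KO. Nf1 itself was 1.09 and 1.01 RPKM in Het and 0.89 and 0.85 RPKM in Nf1-KO, with a log2 fold change of -0.18 ± 0.057 (SE) and a limma adjusted p of 0.041. With a pseudocount of 0.1 the log2 fold change was -0.33 (limma adjusted p 0.045), and in the authors' deposited table it was -0.38 (adjusted p 0.0026). Both libraries labelled Nf1-KO lay below both labelled Het, but the call was lost when any 1 library was left out (limma adjusted p up to 0.18), with the replicate block (0.056), with no filter (0.074) and with values as deposited (0.094). Over all 10690 genes in the test, limma called 50.2% at an adjusted p under 0.05, 25.4% lower and 24.9% higher in Nf1-KO. Of these calls 49.5% were higher after scaling between libraries and 66.6% with values as deposited. The median log2 fold change of all genes was 0.0005 after scaling and 0.07 as deposited.

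Most of the pathway was lower in Nf1-KO. Of the 10 genes, 9 passed the filter of 0.5 RPKM in 2 libraries, and 7 of these fell: Pkm, Eno3, Pgam2, Aldoa, Gapdh, Tpi1 and Pgk1. All 7 had both Nf1-KO libraries below both Het libraries, in deposited values, as had 27.4% of all tested genes, and in scaled values, as had 38.1%. Pgam1 was the only one called higher, by a small amount, and Bpgm did not pass the test. Pgam1 and Bpgm had both Nf1-KO libraries above both Het libraries in deposited values, as had 49.8% of all tested genes, and after scaling this held for Pgam1 but not for Bpgm, against 38.2% of all tested genes. Eno1 was listed at or near 0 in every library and could not be tested. Their median over the 9 tested was -0.51 (log2 fold change), against 0.0005 over all genes. Among 404 genes of at least 100 RPKM, 115 fell and 252 rose past the same threshold, with a median log2 fold change of 0.19.

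Summed over the 10 genes, lower glycolysis took 3.21% and 3.14% of a library's RPKM in Het and 2.26% and 2.23% in Nf1-KO. Libraries of a group differed little, with a median coefficient of variation of 2.03% in Het and 1.91% in Nf1-KO over the 4826 genes that reached 5 RPKM. Less RNA of a gene per fibre and fewer fibres with a high level of it cannot be told apart in whole muscle.

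Aldoa, aldolase A, the form of muscle and of many other cells, was the most abundant gene of the pathway and the 14th most abundant name of all. Het libraries held 7449.78 and 7370.54 RPKM of it, and Nf1-KO libraries 5511.51 and 5472.97 RPKM. These values came from a row marked as a copy of the name, and the other Aldoa row was listed at 0 in all libraries. The groups stood well apart, with a log2 fold change of -0.53 ± 0.014 (SE) and a limma adjusted p of 1.8e-06. An exon of Aldoa overlaps Fam57b on the opposite strand, which is listed at 20.11 and 21.14 RPKM in Het and 11.42 and 10.57 RPKM in Nf1-KO, a small level beside that of Aldoa. Aldoc, the aldolase of brain, held at most 0.13 RPKM in any library.

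Tpi1, which interconverts the triose phosphates, was 1041.62 and 1022.47 RPKM in Het and 809.27 and 806.02 RPKM in Nf1-KO. Its log2 fold change was -0.45 ± 0.016 (SE; limma adjusted p 5.6e-06). Gapdh, the dehydrogenase that makes NADH and is often taken as a reference gene in expression assays, was 3277.77 and 3259.68 RPKM in Het and 2470.1 and 2436.09 RPKM in Nf1-KO. In Nf1-KO it stood at 75% of its Het mean in deposited values and at 70.3% after scaling, with a log2 fold change of -0.51 ± 0.015 (SE; limma adjusted p 2.7e-06). Pgk1, the first enzyme of the pathway to return ATP, fell least of the 7. It was 379.91 and 371.9 RPKM in Het and 329.01 and 330.32 RPKM in Nf1-KO, a log2 fold change of -0.28 ± 0.018 (SE; limma adjusted p 5.7e-05). With values as deposited it was -0.19 and still passed (limma adjusted p 3.9e-04).

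Bpgm makes and breaks 2,3-bisphosphoglycerate, a compound known above all as a regulator of oxygen release in red blood cells. It was 21.38 and 22.11 RPKM in Het and 23.78 and 22.81 RPKM in Nf1-KO. After scaling the groups overlapped, with a log2 fold change of 0.0045 ± 0.035 (SE; limma adjusted p 0.93), while with values as deposited it was 0.10 (limma adjusted p 0.059). Of 10 red cell markers in the files, Alas2 was the only one above the filter, and Hbb-b1, Hbb-b2, Hba-a2, Hbb-bt and Hbb-bs were listed at 0. Summed, these markers came to 1.37 to 1.47 RPKM in Het and 1.67 to 1.78 RPKM in Nf1-KO. How reads with several matches were counted is not given in the sources used here, so these sums may understate red cell RNA.

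The phosphoglycerate mutase and enolase steps each hold a muscle gene and a ubiquitous gene, and promoters are shown to set the muscle genes beside Pgam1. The 250 bases before the RefSeq start (GRCm38.p6; the submitters' processing notes name mm9) are printed 5′ to 3′ on the gene's strand, with MEF2 and E-box (CANNTG) matches in capitals. Pgam2 is read from chr11:5803797-5804046 on the minus strand, Pgam1 from chr19:41911621-41911870 and Eno3 from chr11:70656926-70657175 on the plus strand. Aldoa is read from chr7:126800448-126800697 on the minus strand, the most upstream of its 3 listed starts.
Pgam2: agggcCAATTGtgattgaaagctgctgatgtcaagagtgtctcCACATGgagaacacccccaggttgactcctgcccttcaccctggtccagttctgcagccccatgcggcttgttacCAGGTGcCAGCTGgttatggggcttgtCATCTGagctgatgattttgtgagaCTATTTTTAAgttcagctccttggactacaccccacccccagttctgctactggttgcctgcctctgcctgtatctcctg
Pgam1: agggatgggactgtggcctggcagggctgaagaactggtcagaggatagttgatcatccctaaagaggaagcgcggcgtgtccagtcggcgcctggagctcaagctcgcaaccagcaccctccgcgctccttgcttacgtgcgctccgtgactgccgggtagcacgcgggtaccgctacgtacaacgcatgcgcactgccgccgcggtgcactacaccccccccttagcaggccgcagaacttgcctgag
Eno3: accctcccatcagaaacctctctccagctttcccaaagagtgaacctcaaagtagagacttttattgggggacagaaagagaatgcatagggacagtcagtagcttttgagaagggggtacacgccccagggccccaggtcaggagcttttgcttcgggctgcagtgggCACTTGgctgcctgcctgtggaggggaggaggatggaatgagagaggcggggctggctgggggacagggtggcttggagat
Aldoa: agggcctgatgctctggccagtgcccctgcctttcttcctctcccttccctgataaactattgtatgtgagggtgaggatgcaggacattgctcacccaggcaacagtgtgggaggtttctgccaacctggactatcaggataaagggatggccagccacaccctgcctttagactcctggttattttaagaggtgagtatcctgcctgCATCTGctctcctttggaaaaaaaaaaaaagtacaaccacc

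The Pgam2 window held 1 match to the MEF2 motif, at position -80 counted from -1 for the base before the start, and 5 E-boxes. On either strand, 2.92% of 32851 RefSeq windows of this length held a MEF2 match and 66.2% an E-box. No other start of the 10 genes had a MEF2 match, and the Pgam1 window had neither motif. E-boxes were not confined to the muscle isoforms. There were 2 before the first listed start of Eno1 and 0 before its other starts. Tpi1 and Pgk1 had 2 each, Eno3 had 1, and Gapdh and Bpgm had 0. ACGTG, the core of hypoxia response elements, was searched on both strands too: it occurred in 16.6% of all windows, at 2 places before Pgk1, at 1 before Pgam1, and before 2 of the 3 starts of Aldoa and 1 of 2 of Pkm. TATAAA was found before none of the 10 genes and in 12.4% of all windows. MEF2 and E-box matches did not overlap in the windows printed. These matches are letters in a window, with no binding measured here.

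Pgam2, the muscle mutase, was 1553.03 and 1558.82 RPKM in Het and 1047.37 and 1047.07 RPKM in Nf1-KO. The fall was far outside the spread of either group, with a log2 fold change of -0.67 ± 0.014 (SE) and a limma adjusted p of 8.9e-07. Pgam1, the mutase of most other cells, was 6.67 and 6.86 RPKM in Het and 7.8 and 8.11 RPKM in Nf1-KO. Its log2 fold change was 0.12 ± 0.041 (SE) with a limma adjusted p of 0.048. It stayed higher under each alternative run (0.10 to 0.21), but the call ended when any 1 library was left out (limma adjusted p up to 0.20). In the authors' deposited table the log2 fold change of Pgam1 was 0.13, with an adjusted p of 0.46.

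Within each library, Pgam2 exceeded Pgam1 by a ratio of 233 and 227 in Het and of 134 and 129 in Nf1-KO. The log2 ratio was 7.85 ± 0.025 (SD, n = 2) in Het and 7.04 ± 0.040 (SD, n = 2) in Nf1-KO. The difference was -0.80 ± 0.033 (SE) and does not depend on scaling between libraries. The exact two-sided permutation test gave p = 0.333, the smallest that 2 libraries against 2 allow. Pgam1 made up 0.433% of the pair's RPKM in Het and 0.754% in Nf1-KO, so the muscle form remained nearly the whole of the mutase RNA in both groups. The sum of the pair went from 1559.7 and 1565.68 RPKM to 1055.17 and 1055.18 RPKM.

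Eno3, the muscle enolase, was 2870 and 2806.07 RPKM in Het and 1842.07 and 1823.72 RPKM in Nf1-KO, a log2 fold change of -0.72 ± 0.017 (SE; limma adjusted p 1.1e-06). For Eno1, the ubiquitous enolase, the higher row was listed at 0.01 and 0 RPKM in Het and 0.04 and 0.02 RPKM in Nf1-KO, and its other row at no more than 0.04 RPKM. Eno1 is a gene that nearly every cell uses, so values this near 0 may not give its true level. Because a Het library was listed at 0, a ratio of Eno3 to Eno1 was not computed. Eno1b, a retrogene of Eno1 by the GENCODE annotation, held 12.68 and 13.21 RPKM in Het and 14.69 and 14.78 RPKM in Nf1-KO. Of the 50-base stretches in the longest Eno1 transcript, 70.5% also occur in transcripts of Eno1b, and how reads that match both genes were assigned is not given in the sources used here.

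Eno1b was therefore set beside Eno3, a choice made after its values were seen. Its log2 fold change was 0.09 ± 0.035 (SE; limma adjusted p 0.086), and with values as deposited 0.17 (limma adjusted p 0.0073). Eno3 exceeded Eno1b by 226 and 212 times in Het and by 125 and 123 times in Nf1-KO. The log2 ratio was 7.78 ± 0.065 (SD, n = 2) and 6.96 ± 0.016 (SD, n = 2), a difference of -0.82 ± 0.047 (SE; exact two-sided permutation p = 0.333). Eno1b took 0.454% of the pair in Het and 0.798% in Nf1-KO. Eno2, the neuronal enolase, was between 0.07 and 0.13 RPKM in the 4 libraries.

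**Figure D1:**
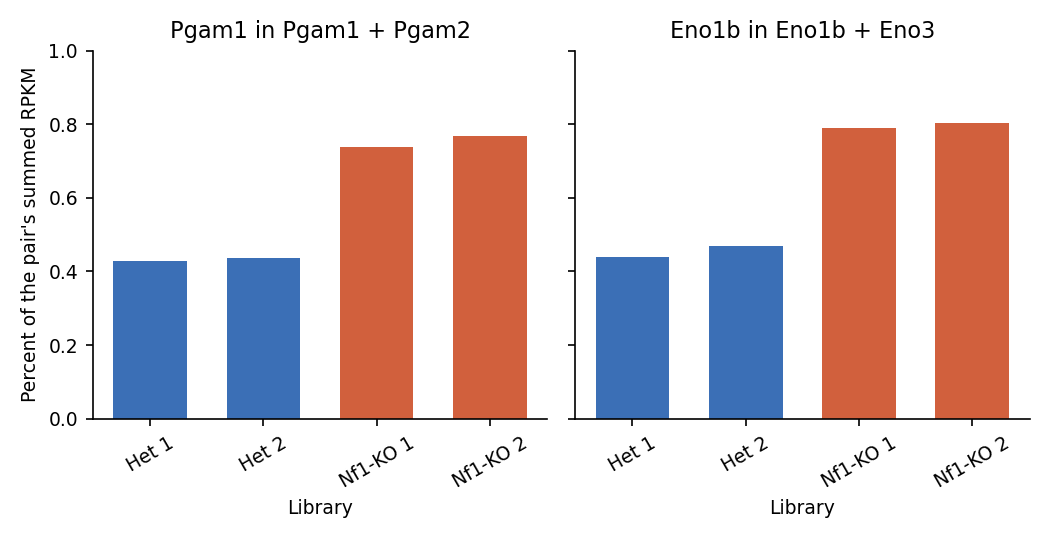
Percent of the pair's summed RPKM, per library, held by Pgam1 beside Pgam2 (left) and by Eno1b, a retrogene of Eno1, beside Eno3 (right). Bars are single libraries, blue for Het and orange for Nf1-KO. Shares ran from 0.428% to 0.469% in Het and from 0.739% to 0.804% in Nf1-KO, on an axis that ends at 1%.

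Pkm, pyruvate kinase, which makes pyruvate and the last ATP of the pathway, showed the largest fall of the 10 genes. It was 465.88 and 457.09 RPKM in Het and 277.5 and 270.82 RPKM in Nf1-KO, a log2 fold change of -0.84 ± 0.021 (SE; limma adjusted p 1.3e-06). Pkm in Nf1-KO stood at 59.4% of its Het mean in deposited values. The gene is spliced into an adult muscle form and a form of growing cells, and values per gene do not separate them. A row under its older name Pkm2 held 0.12 to 0.15 RPKM, and Pklr, the kinase of liver and red cells, was listed at 0 in all libraries. Of the splicing factors that choose between the forms, Ptbp1 was 2.29 and 2.82 RPKM in Het and 3.39 and 3.21 RPKM in Nf1-KO (log2 fold change 0.21, limma adjusted p 0.074). Hnrnpa2b1 was 61.13 and 64.91 RPKM in Het and 67.43 and 68.68 RPKM in Nf1-KO (log2 fold change 0.02, limma adjusted p 0.71). Hnrnpa1 was 0.51 and 0.45 RPKM in Het and 0.36 and 0.68 RPKM in Nf1-KO (limma adjusted p 1.0). These 3 were picked for that role after their values were seen, and none passed the test in the main setting. With values as deposited, Ptbp1 (log2 fold change 0.28, limma adjusted p 0.029) and Hnrnpa2b1 (0.11, limma adjusted p 0.034) passed. The values of Hnrnpa1 came from a row marked as a copy of the name.

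**Figure D2:**
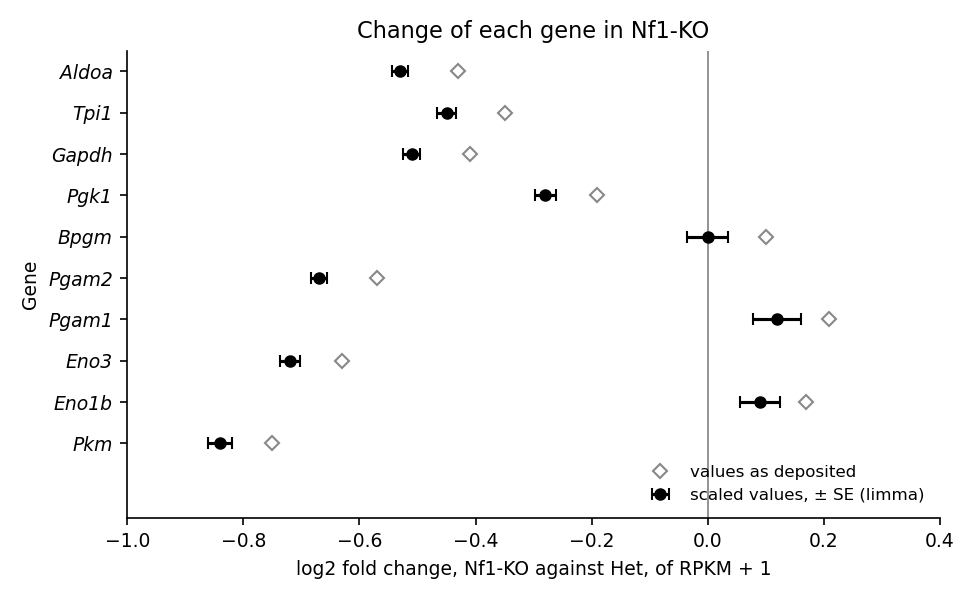
Log2 fold change of Nf1-KO against Het for each tested gene and Eno1b, from scaled RPKM (filled points, bars are the standard error from limma) and from values as deposited (open diamonds). The 7 that fell run from -0.84 for Pkm to -0.28 for Pgk1, and values as deposited lie to the right of scaled ones for each gene.

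The 7 falls were unequal and did not follow the order of the steps. Pkm, Eno3 and Pgam2, which encode the last steps to pyruvate, had log2 fold changes from -0.84 to -0.67, and Aldoa, Gapdh and Tpi1 from -0.53 to -0.45. Pgk1, between them in the pathway, stood apart at -0.28, with standard errors of 0.014 to 0.021 over the 7 genes. Ckm, the muscle creatine kinase, was itself called lower, with a log2 fold change of -0.17 ± 0.015 (SE; limma adjusted p 1.9e-04). Relative to Ckm, the log2 ratio within a library differed by -0.67 for Pkm, -0.55 for Eno3, -0.49 for Pgam2 and -0.11 for Pgk1. The authors' deposited table listed 9 of the 10 genes and called the same 7 lower, where 16.6% of its 13985 genes were lower at an adjusted p under 0.05. Its log2 fold changes ran from -0.86 for Pkm to -0.30 for Pgk1, and it called none of the 10 higher, where 15% of all its genes were. The mean normalized count in that table was 561595 for Aldoa, 56377 for Pgam2 and 638 for Pgam1, so the muscle genes rest on many more reads.

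The rest of sugar metabolism moved less evenly. Over all 10690 tested genes, limma called 25.4% lower and 24.9% higher in Nf1-KO. In glucose entry and upper glycolysis, 7 of 14 tested genes fell and 1 rose, with a median log2 fold change of -0.06. With values as deposited, 6 fell and 4 rose, and 3 of the 8 calls, that of the gene that rose (Slc2a1, a glucose transporter, named after its values were seen) among them, ended when a library was left out. Pfkm, the muscle phosphofructokinase and the most abundant of that list, fell by 0.78 on the log2 scale, from 1229 ± 1.48 to 765 ± 8.41 RPKM (SD, n = 2). Pfkfb1 and Pfkfb4, which set the level of the activator fructose 2,6-bisphosphate, had log2 fold changes of -1.84 and -1.07. Gpi1, the isomerase just above phosphofructokinase, was 237.2 and 237.23 RPKM in Het and 249.18 and 248.16 RPKM in Nf1-KO (log2 fold change -0.03, limma adjusted p 0.25; as deposited 0.07, limma adjusted p 0.017), and was taken as the step next to those described. In glycogen use, 8 of 14 tested genes fell and 4 rose (median -0.24). Pygm, the muscle glycogen phosphorylase, fell by 0.63, and the subunits Phka1 and Phkb of the kinase that activates it had log2 fold changes of -1.01 and -0.93.

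Beyond pyruvate the direction differed. Among all tested genes 24.9% were called higher and 25.4% lower, and with values as deposited 66.6% of all calls were higher. Of 16 tested pyruvate and lactate genes, 11 rose and 2 fell (median 0.23). Those that fell were Ldha, the lactate dehydrogenase subunit of fast muscle (-0.68 ± 0.020, SE), and Slc16a3, the lactate exporter (-1.46 ± 0.025, SE). Ldhb, the subunit of oxidative tissue, rose by 2.03 on the log2 scale, from 85.6 ± 1.44 RPKM to 375 ± 1.04 RPKM (SD, n = 2). Pdk4, which inhibits pyruvate dehydrogenase, rose by 1.12. On the branches that leave lower glycolysis, 6 of 14 tested genes rose and 4 fell (median 0.11). The glycerol phosphate dehydrogenases Gpd1 and Gpd2 had log2 fold changes of -0.85 and -1.30, while Aldh2 rose by 1.13 and Mdh1, the most abundant of the list, by 0.58. Of 21 tested regulators of glycolytic genes, 8 rose and 4 fell (median 0.11), and with values as deposited 13 rose and 3 fell. Among them Klf15, which rises with fasting and glucocorticoids, rose by 0.92 and Ppargc1a, a coactivator of mitochondrial genes, by 0.37, Rora fell by 0.34, and Mef2c, the most abundant, had a log2 fold change of 0.06 (limma adjusted p 0.087).

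**Figure D3:**
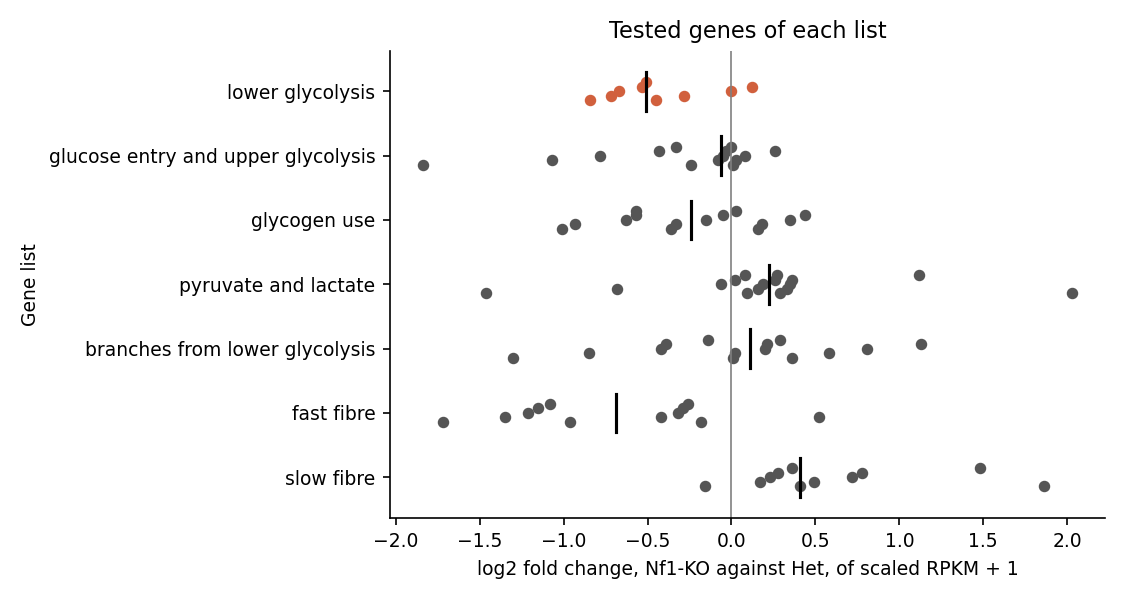
Log2 fold change of each tested gene (points) and the median (black bar) for lower glycolysis (orange) and for 6 lists of neighbouring pathways and fibre genes (grey); small vertical offsets only separate points. The lower glycolysis median is -0.51, that of upper glycolysis -0.06, that of pyruvate and lactate genes 0.23, and that of fast fibre genes -0.69.

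Fibre genes moved as well, where 25.4% of all tested genes were called lower and 24.9% higher. Of 12 fast fibre genes, 11 fell and 1 rose (median -0.69), with log2 fold changes of -1.72 for Pvalb, -1.35 for Actn3, -1.21 for Mybpc2 and -0.29 for Tnnt3, the most abundant. The gene that rose was Myh1, the IIx myosin heavy chain, by 0.52. Of 11 slow fibre genes, 10 rose (median 0.41), with Casq2, Myoz2 and Tnnt1 rising by 1.86, 1.48 and 0.78, and Mb, the most abundant, by 0.72. The exception was Myh7, the slow myosin heavy chain itself, at 1.53 and 1.66 RPKM in Het and 1.47 and 1.36 RPKM in Nf1-KO (log2 fold change -0.16, limma adjusted p 0.066). Myh1 and Myh7 were named after their values were seen. The part of fibre makeup in the fall of the glycolytic genes was not tested.

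The pattern over the 4 libraries was compared with that of 761 genes of at least 50 RPKM, by the Euclidean distance of centred log2 scaled values. Closest to Pgam2 were Igfbp5, Nudt4, Ldha, Pygm and Pfn1, at distances of 0.025 to 0.043. Closest to Eno3 were Phlda3, Jph2, Shisa4, Nudt4 and Calm3, at 0.028 to 0.039. The log2 fold changes of these genes ran from -0.75 to -0.63. Libraries of a group differed little, so this distance mostly reflects the fold change. A fold change near that of Pgam2 or Eno3 therefore follows from the search and is no separate result.

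Skeletal muscle markers were high in all libraries, with Acta1 the highest at 15867 ± 90.2 RPKM in Het and 12411 ± 149 RPKM in Nf1-KO (SD, n = 2). Of the 7, 5 fell and 2 rose (median log2 fold change -0.26), and they summed to 51870 and 51910 RPKM in Het and 44510 and 44990 RPKM in Nf1-KO. Among them Myh4, Tnnt3, Atp2a1 and Mb were already counted in the fibre lists above, so this sum is not separate from those lists. Marker sums in this paragraph are given with the lower library of each group first. Markers of other cell types were higher in Nf1-KO in several lists, where 24.9% of all tested genes were called higher and 25.4% lower. Immune cell markers summed to 11.31 and 11.32 RPKM in Het and 31.66 RPKM in each Nf1-KO library, led by Lyz2, with 4 of 4 tested genes higher and Adgre1 and Emr1 listed at 0. Schwann cell markers summed to 16.07 and 16.44 against 35.36 and 37.02 RPKM (7 of 7 tested higher). Fibroblast markers, led by Dcn, summed to 97.72 and 100.2 against 151.0 and 151.2 RPKM (7 of 8 tested higher). Dcn itself had a log2 fold change of 0.10, and without it the fibroblast sums were 44.7 and 45.2 against 88.9 and 89.3 RPKM. When a library was left out, 1 immune, 2 Schwann and 1 fibroblast call (that of Dcn) ended. Adipocyte markers, led by Cfd, summed to 8.29 and 9.47 against 20.02 and 20.6 RPKM (2 of 3 tested higher). Without Cfd the adipocyte sums were 2.42 and 2.67 against 2.68 and 2.89 RPKM. The other adipocyte markers, named after their values were seen, went both ways. Adipoq, Plin1 and Lep stood at 82.6%, 93.3% and 18.6% of their Het means, and Retn and Cidec at 176% and 192%. Plin1, Lep and Retn were below the filter. Adipoq was not called (limma adjusted p 0.058) and Cidec was called higher (limma adjusted p 0.0029). Endothelial markers, led by Cdh5, summed to 87.29 and 87.68 against 92.87 and 94.7 RPKM (3 of 8 tested higher, 2 lower). All 3 higher calls and 1 of the 2 lower ones ended when a library was left out, and the endothelial sums differ by about as much as the scaling factors of the groups (0.969 and 0.967 against 1.03 and 1.03). Satellite cell markers, led by Cdh15, summed to 9.2 and 9.35 against 10.73 and 10.75 RPKM (2 of 4 tested higher, both calls lost when a library was left out). Of dividing cell markers only Pcna could be tested, with a log2 fold change of 0.18 (limma adjusted p 0.058). It passed with the replicate block (limma adjusted p 0.019), with values as deposited (0.016), with 1 RPKM required in every library (0.036) and without Nf1-KO library 1 (0.0041). The dividing cell markers had sums of 9.42 and 9.95 against 11.03 and 12.56 RPKM. Without Pcna these sums were 0.28 to 0.3 RPKM in Het and 0.28 to 0.29 RPKM in Nf1-KO. The part of these cells in the values of Pgam1 and Eno1b was not tested.

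The genes differ in how far their sequence is their own. In the longest protein-coding transcript, stretches of 50 bases that also occur in a transcript of another gene made up 82.5% for Gapdh, shared with 222 other genes, 68% for Pgk1, 72.2% for Eno1, 41.5% for Pgam1 and 34.4% for Pkm. They made up 13.5% for Aldoa and 7.51% for Tpi1, and Pgam2, Eno3 and Bpgm had 0. The muscle isoforms of both pairs therefore have values that no other annotated transcript can share at this length. The values of Pgam1, Eno1b, Gapdh, Pgk1 and Pkm are uncertain in level, since how the counting treated reads with several matches is not given in the sources used here. For Pkm the share was 9.82% with stretches of 100 bases. Exons of Gapdh and Tpi1 also overlap Iffo1 and Spsb2 on the opposite strand, which held at most 2.8 and 1.79 RPKM. An exon of Pkm overlaps Gm49759 on the same strand, and no value is listed for Gm49759.

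**Figure D4:**
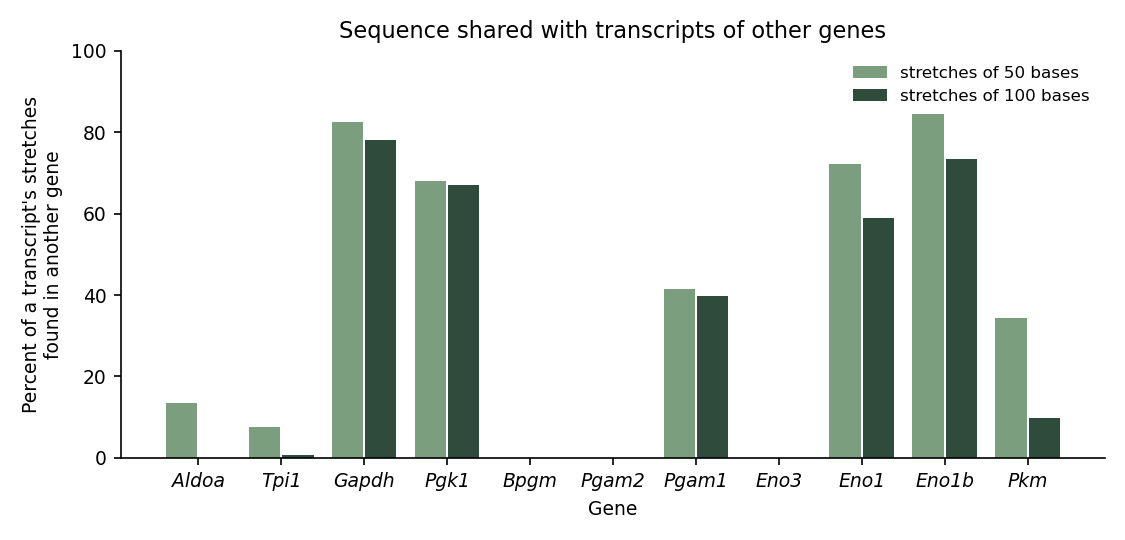
Percent of all 50-base (light) and 100-base (dark) stretches of each gene's longest protein-coding transcript (GENCODE M21) that also occur in a transcript of another gene. Gapdh, Pgk1, Eno1 and Eno1b share most of their sequence, and Pgam2, Eno3 and Bpgm share none at either length.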

How the data were processed

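Total RNA of 4 tibialis anterior libraries was sequenced from TruSeq version 2 libraries, per the labels' protocols. The submitters' processing notes name STAR 2.4.2a, DESeq2 and build mm9; the counting program, annotation and strand setting are not given in the sources used here. The authors deposited 34682 rows per library, whose unit was read from the values as RPKM. Of these, 33 with a number for a name were left out. The authors also deposited a comparison table; per the file headers, its signal is a mean of counts divided by size factors, beside log2 fold changes, a test score and a p-value, raw and adjusted.

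RPKM were scaled by a trimmed mean of log ratios (30% of ratios, 5% of abundances at each end; factors 0.969, 0.967, 1.03 and 1.03) and log2(RPKM + 1) values went into limma (version 3.58.1, R 4.3.3) with a trended prior variance, two-sided, with Benjamini-Hochberg adjustment over 10690 genes of at least 0.5 RPKM in 2 libraries. Fold changes on this scale understate the change of low genes. The script was tested on simulated data. Isoform ratios used unscaled RPKM and scipy 1.17.1. Depth was estimated from the steps of low values in short single-transcript genes, with lengths from the GENCODE M21 annotation; no count test was run, and no intervals are given. Named beside the 10 genes were Nf1, other isoforms of the same steps, and from each list the most abundant gene and up to 3 called genes of at least 5 RPKM with the largest change; for cell marker lists the text gives the most abundant gene. Some genes that this rule names are not reported here. Some genes outside this rule are marked as such where they are named. Ckm, the reference within libraries, and Atp2a1 lie outside it too. The members and lists were chosen with earlier results of these data known. Alternatives tried were the pseudocount, filters, scaling, variance trend, replicate block, copies of a name, threshold, and leaving out each library. The labels give no batch.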

Additional observations from a re-analysis of the deposited data

How the results depend on the processing

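Over 15 settings, 695 of 755 alternative values had the main direction and the same call, or for counts stayed within 1.5 times. The count of 7 members lower was the same under each alternative run, as were the directions of both isoform ratios. The count of members higher was 1 (Pgam1) and became 0 with no filter, with scaling that left out the 20 most abundant genes, without a variance trend, with the replicate number as a block, at an adjusted p under 0.01, and when any 1 library was left out (0 to 0). Bpgm, never called, reversed to -0.0083 with no filter, -0.0224 when scaled without the 20 most abundant genes, -0.0267 without Het library 1 and -0.0166 without Nf1-KO library 1 (leaving out a library gave -0.0267 to 0.044). Cdh5, near 0, reversed to -0.0119, -0.0262, -0.0117 and -0.0002 under the same 4 settings (leaving out a library gave up to 0.021), and Cdh15 to 0.0602 with values as deposited; the cause was not tested. Libraries with the same replicate number showed no pairing (correlation of deviations -0.0179 across 10690 genes). With the replicate block, the isoform ratio differences were -0.8048 for Pgam2 to Pgam1 and -0.8178 for Eno3 to Eno1b, the members lower 7, and the genes changed 5235; the block ended the calls of Pgam1 (0.054) and Nf1 (0.056) and added that of Pcna (0.019), as limma adjusted p. The planned ratio of Eno3 to Eno1 was not run, since Eno1 is listed at 0 in a library; Eno1b was chosen after seeing the data, and with all Eno1 and Eno1b rows summed the difference was -0.8227. With 2 libraries a group, the permutation test cannot pass 0.05. Pgam1 and Eno1b rest on 638 and 1155 mean normalized counts in the authors' deposited table, which limits their precision.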
